A study of Mus musculus with 8 samples.

Results

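The mean signals of 10 genes of the cell cycle engine were compared between wild type and VRK1-deficient mouse testes. The genes are 4 cyclin-dependent kinases (CDKs), namely Cdk1, Cdk2, Cdk4 and Cdk6, 2 CDK inhibitors of the Cip/Kip family, Cdkn1b and Cdkn1c, and 4 of the INK4 family, Cdkn2a, Cdkn2b, Cdkn2c and Cdkn2d. They were chosen by name, as every probe that the array files label with one of these symbols (Cdk1 under its older symbol Cdc2a). They make up 10 of 27670 symbols and 17 of 41174 probes on the array. Of the 17 probes, 13 were bright enough to be tested, and all 10 genes had at least 1 such probe. RNA came from whole testes of male pups at postnatal day 8. The study compared 4 wild type samples with 4 from VRK1-deficient mice, 1 array per sample, to learn how a deficiency of the kinase VRK1 alters the testicular transcriptome. The mutant allele is a gene trap with a β-geo cassette in intron 3 of Vrk1, from 1 embryonic stem cell clone, in mice backcrossed to C57BL/6. The cassette is present in every cell, and the allele is hypomorphic, so that some full-length VRK1 remains in homozygotes. The labels call the samples biological replicates and do not give litters or the number of mice behind each, so p-values measure the spread between these samples.

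CDKs are kinases that become active when a cyclin binds them, and their order of activation drives a cell through the division cycle. Cdk4 and Cdk6 act with D-type cyclins in G1, Cdk2 acts with cyclins E and A at the entry to and during S phase, and Cdk1 acts with cyclins A and B in G2 and mitosis. INK4 inhibitors bind Cdk4 and Cdk6 alone, whereas Cip/Kip inhibitors bind complexes of a cyclin with a CDK. At this age the mouse testis holds dividing spermatogonia and dividing Sertoli cells, and p27 (Cdkn1b) is known to rise as Sertoli cells leave the cell cycle.

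Each gene was read by 60-base probes, and those on which a result turns are given here whole or in part. Cdk1 was read by a probe whose ends lie 2410 bases apart in the genome (chromosome 10 from 68946079 to 68948488, build mm7), so it spans an intron. The Cdk6 probe A_52_P417489, listed for NM_009873, also spans intron sequence (chromosome 5 from 3479226 to 3521510). The other Cdk6 probe, A_51_P489779, lies within a single stretch (chromosome 5 from 3535293 to 3535352) and is listed for another transcript, AK030810, and its first 30 bases are given. Cdk4 was read by a probe on chromosome 10 from 126562389 to 126562448.
Cdk1 A_51_P450033: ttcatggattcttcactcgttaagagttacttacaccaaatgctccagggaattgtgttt
Cdk4 A_51_P437027: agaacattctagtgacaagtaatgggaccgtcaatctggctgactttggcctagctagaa
Cdk6 A_52_P417489: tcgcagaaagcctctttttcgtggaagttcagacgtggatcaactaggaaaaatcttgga
Cdk6 A_51_P489779, bases 1 to 30: tgcgtagaagtatatggcttcactgtaaag
Cdkn2a A_51_P144813, bases 1 to 30: cacttctagcgatgctagcgtgtctagcat
The 2 Cdkn2c probes share 40 bases and are not separate readings of the transcript. The first 30 of the shared bases are shown.
Cdkn2c shared stretch: ccgttagttggttggctgtccgtttcacta
No member probe shared a run of 25 bases with a probe of another gene on the array. The Cdk4 probe is also listed for a predicted sequence similar to Cdk4, and the share of its signal from there was not tested. Whether each probe lies in coding or untranslated sequence was not determined here.

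The 250 bases upstream of the start are shown for Cdk1 and Cdk4, the CDKs whose signal was higher on all 4 VRK1-deficient arrays than on any wild type array. Sequences and starts are those of RefSeq on GRCm38.p6. RefSeq promoters were found for 9 of the 10 genes, without Cdkn1c, and 11 starts in all. The motifs below were searched on both strands from 250 bases before to 50 bases after the start. These were TTTGAA, the core of the cell cycle homology region known from promoters of G2 and mitotic genes, the CCAAT box (CCAAT) and the E box CACGTG, the site of Myc and related factors. No match of one motif overlapped a match of another in these promoters. Capitals mark TTTGAA in Cdk1 and CACGTG in Cdk4.
Cdk1 chr10:69352913-69353162, minus strand: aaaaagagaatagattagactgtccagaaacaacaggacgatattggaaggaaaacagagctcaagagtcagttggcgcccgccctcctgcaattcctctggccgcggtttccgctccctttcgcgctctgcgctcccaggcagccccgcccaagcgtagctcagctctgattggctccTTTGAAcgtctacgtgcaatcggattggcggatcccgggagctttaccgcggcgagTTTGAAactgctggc
Cdk4 chr10:127063285-127063534, plus strand: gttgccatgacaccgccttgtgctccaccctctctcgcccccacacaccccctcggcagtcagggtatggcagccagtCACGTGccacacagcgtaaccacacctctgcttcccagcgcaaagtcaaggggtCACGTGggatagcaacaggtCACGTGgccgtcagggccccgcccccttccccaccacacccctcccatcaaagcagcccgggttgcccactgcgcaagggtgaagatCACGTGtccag
TTTGAA stood at 71 and 15 bases before the Cdk1 start (2 matches), and among the other genes only Cdkn2b held it, with 1 match. Of 32851 RefSeq promoters of the same length, 17.9% held it. CACGTG was found 4 times before the Cdk4 start, 1 time in Cdk6 and 1 time after the second Cdkn2c start, against 7.15% of all promoters. CCAAT was found 3 times in Cdk1, on the strand opposite to the gene, 3 times in Cdkn1b, and 1 time each in Cdk2, Cdkn2d and 1 of the 2 starts of Cdkn2a and of Cdkn2c, against 37.4% of all promoters. These are matches of letters, and binding was not measured.

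Values are log2 signals after division by the 75th percentile of each array, and every change is VRK1-deficient minus wild type. The 2 Vrk1 probes checked the labels. The log2 signal of A_51_P102339 was -0.20, -0.11, 0.59 and 0.35 on wild type arrays 1 to 4 and -3.97, -3.68, -3.58 and -4.16 on VRK1-deficient arrays 1 to 4. The change was -4.00 in log2 (limma adjusted p = 0.000135, standard error 0.21), which leaves 6.23% of the wild type signal, and it was -3.93 on the second probe. The side of the gene trap on which each probe lies was not determined. Wild type replicate 1 had the Vrk1 signal of its group and yet stood apart from it over all probes. Its correlation across 26941 probes was 0.970 to 0.986 with the other wild type arrays and 0.987 to 0.990 with the VRK1-deficient arrays (probes are not independent, and no p is given), so the changes of the 10 genes are also given without it. This array was singled out in these same data for its likeness to the VRK1-deficient arrays. Leaving it out favours wider differences between genotypes, so calls and p-values without it are not separate support for a change. The arrays lay on 2 slides, with replicates 1 and 2 of either genotype together on the first and replicates 3 and 4 on the second. Positions 1 and 2 of a slide always carried wild type RNA and positions 3 and 4 VRK1-deficient RNA, so position and genotype cannot be told apart.

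Markers of several cell types differed with genotype. All 8 germ cell markers were lower in VRK1-deficient testes, 2 of them called (Sall4 and Tdrd1) and all 8 called without wild type replicate 1, where the shares called over all tested probes were 3.64% and 28.4%. Their summed signal, in units of the 75th percentile, was 24.0 to 57.5 on wild type arrays (24.0 on replicate 1) and 16.9 to 25.9 on VRK1-deficient arrays, and all 8 were above background on all 8 arrays. Of 9 Sertoli cell markers, 7 were higher and 2 lower, with 0 called by limma. At an unadjusted limma p under 0.05 were 5, among them both lower ones, Cldn11 and Rhox5. Without wild type replicate 1, 7 were called, 6 higher and 1 lower (Rhox5). The sum of the 9 Sertoli cell markers was 192 to 285 in wild type (285 on replicate 1) and 251 to 300.2 in VRK1-deficient testes. All 4 mast cell markers were called higher, from 0.152 to 0.291 in sum to 0.524 to 0.773, with 2 of them above background on all 8 arrays. Of 5 peritubular myoid cell markers, 1 was called, Cnn1, which was lower, with sums of 139 to 153 and 121 to 155. None of the Leydig cell (6), macrophage (5), endothelial cell (4) and erythroid cell (2) markers tested was called, with 2, 0, 1 and 0 at an unadjusted limma p under 0.05. All 4 endothelial cell markers were higher, with separate sums of 2.35 to 2.93 in wild type and 3.03 to 3.52 in VRK1-deficient testes. Of the Leydig cell markers 4 were higher and 2 lower, and all 5 macrophage markers were higher. Sums overlapped for these lists, at 33.6 to 51.1 and 44.1 to 57.2 for Leydig cells and 10.8 to 16.4 and 14.9 to 17.9 for macrophages. The 2 erythroid cell markers were lower. Sums add linear signals, so the brightest markers of a list weigh most, as Clu does among Sertoli cell markers (mean log2 signal 7.05 in wild type). In whole testes, fewer cells of a type and less RNA per cell cannot be told apart, and the part of these shifts in the values below was not tested.

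Of the 10 genes, each represented by its brightest probe, 3 were called, at a limma adjusted p under 0.05 over all 26948 tested probes. Cdk1 and Cdkn2c were higher and Cdkn2a was lower in the mutant testes. The share called over all tested probes was 3.64%. Without wild type replicate 1, 6 of the 10 were called, with Cdk4, Cdkn1c and Cdkn2b as well, where the share over all probes was 28.4%. The ranges of the genotypes were also separate for these 6 genes, as they were for 16.7% of all tested probes. When a single array other than that one was dropped, whichever of the 7 it was, 0 of the 10 were called and 6 had an unadjusted limma p under 0.05, beside 5308 to 7410 of the 26948 probes. No gene was called within slide 1 alone, where 3 had an unadjusted limma p under 0.05 beside 2673 of 26948 probes. With no filter on dim probes none was called either, and 6 had an unadjusted limma p under 0.05 beside 12212 of 41174 probes. Within slide 2 alone, Cdkn2a (limma adjusted p = 0.0353) and Cdkn2b (limma adjusted p = 0.0435) were called, beside 1059 of 26948 probes. The median change of the 10 genes was 0.04, equal at this precision to the 0.04 over all tested probes, and it covers changes from -1.42 to 0.60.

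**Figure D1:**
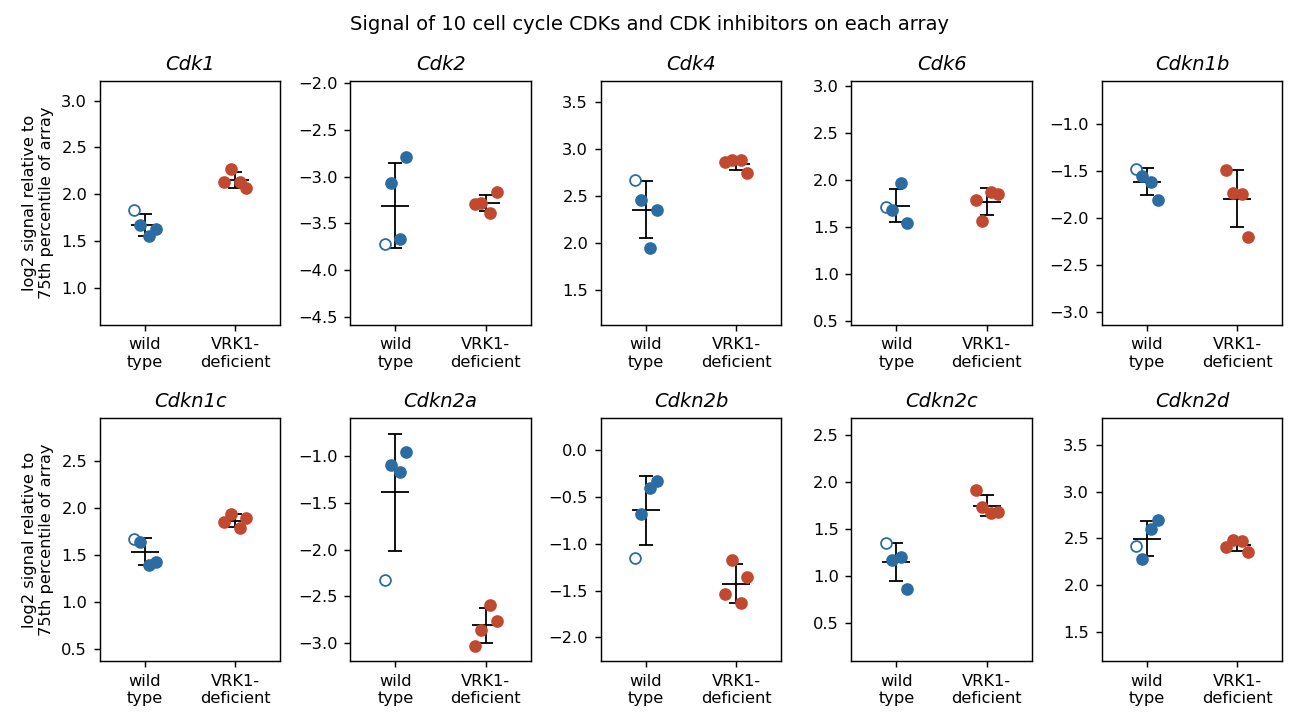
Log2 signal in units of the array's 75th percentile (vertical axes, each spanning the same range of log2 units) for the probe with the highest mean signal of each of the 10 genes, for 4 wild type (blue) and 4 VRK1-deficient (red) arrays. Points are arrays, open points are wild type replicate 1, lines are means and bars are SDs. The VRK1-deficient arrays lie above all wild type arrays for Cdk1, Cdk4, Cdkn1c and Cdkn2c and below them for Cdkn2a and Cdkn2b.

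Of the kinases, Cdk1 rose, the values of Cdk4 pointed the same way without passing the test, and Cdk2 and Cdk6 gave changes near 0 on their brightest probes. The other tested Cdk6 probe gave -1.06 (limma adjusted p = 0.0585). Cdk1 is the kinase that drives entry into mitosis. Its log2 signal was 1.83, 1.68, 1.55 and 1.63 on wild type arrays 1 to 4 and 2.13, 2.27, 2.14 and 2.07 on VRK1-deficient arrays 1 to 4. The lowest VRK1-deficient array lay above the highest wild type array, which was replicate 1. The change was 0.48 in log2 (1.39-fold, limma adjusted p = 0.0493, standard error 0.11), and it was 0.53 (limma adjusted p = 0.00873) without wild type replicate 1. Slide 1 alone gave 0.45 and slide 2 alone 0.51, and with slide as a block the limma adjusted p was 0.0509. On the signals as deposited, without scaling, the change was 0.30 (limma adjusted p = 0.485), where the median over all probes was -0.14 against 0.04 after scaling. When 1 of the remaining 7 arrays was dropped instead, the adjusted p of limma was 0.0712 to 0.151. A second Cdk1 probe (A_52_P339954) was not well above background on any array.

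Cdk4 is the kinase of the D-type cyclins in G1. Log2 signals were 2.67, 2.45, 1.94 and 2.35 on wild type arrays and 2.86, 2.88, 2.89 and 2.74 on VRK1-deficient arrays. The groups did not overlap, and the spread was wider in wild type (SD 0.31, n = 4) than in VRK1-deficient testes (SD 0.07, n = 4). The change was 0.49 in log2 (limma adjusted p = 0.0883, standard error 0.16), and 0.59 (limma adjusted p = 0.0179) without wild type replicate 1. Slide 1 alone gave 0.31 and slide 2 alone 0.67, and without scaling the change was 0.31 (limma adjusted p = 0.524). The change of Cdk4 was close to that of Cdk1, and its standard error was larger.

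Cdk6, the other partner of the D-type cyclins, gave different values on its 2 tested probes. The brighter probe, A_51_P489779, had log2 signals of 1.71, 1.68, 1.97 and 1.54 on wild type arrays and 1.79, 1.57, 1.88 and 1.85 on VRK1-deficient arrays. These groups overlapped, and the change was 0.04 in log2 (95% confidence interval -0.25 to 0.33, limma adjusted p = 0.848), as it was without wild type replicate 1. The probe A_52_P417489, which spans introns, had log2 signals of -1.34, -0.29, -0.38 and -0.25 on wild type arrays and -1.95, -1.35, -1.31 and -1.91 on VRK1-deficient arrays. Wild type replicate 1 lay among the VRK1-deficient arrays and the other 3 wild type arrays lay above them. The change on that probe was -1.06 (limma adjusted p = 0.0585, standard error 0.27), and -1.32 (limma adjusted p = 0.00389) without wild type replicate 1. The difference between the 2 probes on the same array shifted by -1.10 from wild type to VRK1-deficient testes (exact two-sided permutation test over 70 arrangements, p = 0.0571, and 0.171 adjusted over the 3 genes with 2 tested probes). Without wild type replicate 1 the shift was -1.36 (exact two-sided permutation test over 35 arrangements, p = 0.0286, the smallest that this design allows). This comparison was chosen after the values were seen. The remaining probe, A_51_P388310, was well above background on 2 wild type arrays and on 0 VRK1-deficient arrays and was not tested.

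**Figure D2:**
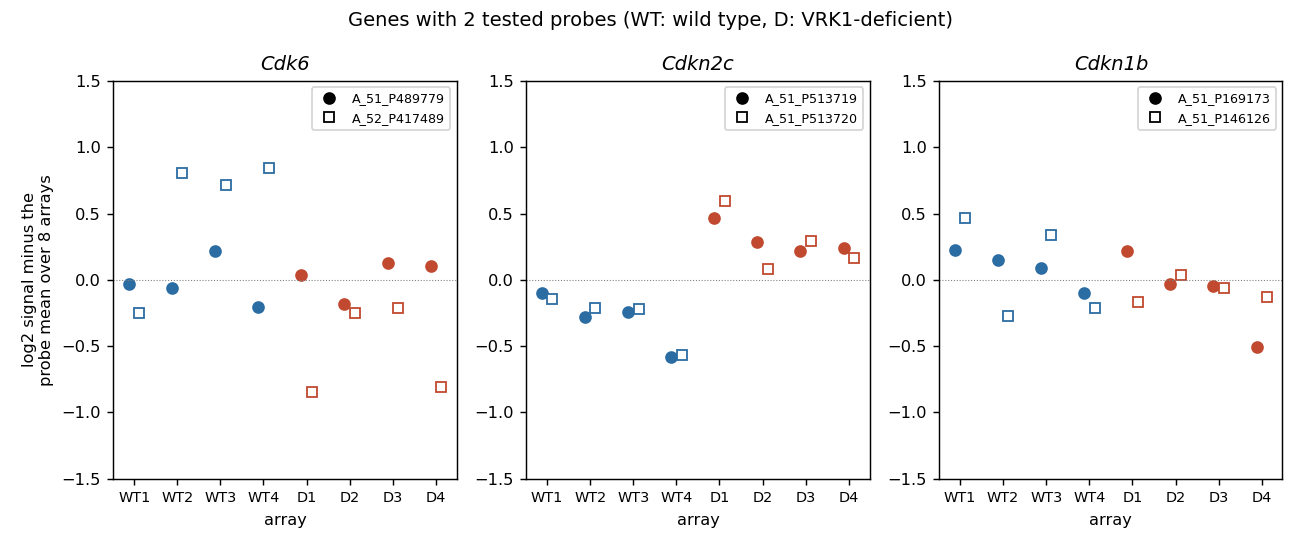
Log2 signal minus the mean of the probe over 8 arrays (vertical axis) on each array (horizontal axis; WT1 to WT4 wild type in blue, D1 to D4 VRK1-deficient in red) for the 3 genes with 2 tested probes. Filled circles are the brighter probe and open squares the other one. The Cdk6 probes separate, with the squares of WT2 to WT4 high and those of all VRK1-deficient arrays low, whereas the Cdkn2c probes, which share 40 bases, move together.

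Cdk2, the kinase of S phase entry, was read by a dim probe (A_52_P651298, chromosome 10 from 128205529 to 128205588). Its log2 signals were -3.72, -3.07, -3.66 and -2.79 on wild type arrays and -3.29, -3.29, -3.39 and -3.17 on VRK1-deficient arrays. All VRK1-deficient arrays fell within the wild type range. The change was 0.03 in log2 (95% confidence interval -0.44 to 0.50, limma adjusted p = 0.940), and -0.11 without wild type replicate 1. The other Cdk2 probe was not well above background on any array.

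Of the Cip/Kip inhibitors, Cdkn1b had overlapping groups and Cdkn1c did not, and neither passed the test. Cdkn1b encodes p27, which holds cells in G1 and whose loss enlarges the testis. The log2 signal of its probe with 10 spots per array (A_51_P169173, chromosome 6 from 134935407 to 134935465) was -1.47, -1.55, -1.61 and -1.80 on wild type arrays and -1.48, -1.73, -1.75 and -2.21 on VRK1-deficient arrays. These groups overlapped, with a change of -0.18 (95% confidence interval -0.55 to 0.19, limma adjusted p = 0.482), or -0.14 without wild type replicate 1. Its second tested probe, A_51_P146126, gave -0.16 (limma adjusted p = 0.582), and the difference between both probes shifted by 0.02 (exact two-sided permutation test, p = 0.971). The remaining probe was not well above background on any array.

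Cdkn1c encodes p57, an imprinted inhibitor expressed from the maternal copy. The log2 signal of its probe (A_51_P339540, chromosome 7 from 139886128 to 139886187) was 1.67, 1.64, 1.40 and 1.43 on wild type arrays and 1.85, 1.94, 1.79 and 1.90 on VRK1-deficient arrays. All VRK1-deficient arrays lay above all wild type arrays. The change was 0.33 in log2 (1.26-fold, limma adjusted p = 0.0964, standard error 0.11), and 0.38 (limma adjusted p = 0.0335) without wild type replicate 1. Without scaling it was 0.15 (limma adjusted p = 0.754).

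In the INK4 family, Cdkn2a fell and Cdkn2c rose, Cdkn2b was lower without passing the test, and Cdkn2d gave a change near 0. Cdkn2a encodes both p16 INK4a and, from another first exon, p19 ARF, which acts on the p53 pathway. RefSeq places its 2 starts 12427 bases apart on GRCm38.p6. The probe (A_51_P144813, chromosome 4 from 88678367 to 88678426, 10 spots per array) is listed for both transcripts and does not separate them. Its signals on the log2 scale were -2.32, -1.10, -1.17 and -0.96 on wild type arrays and -3.02, -2.86, -2.59 and -2.77 on VRK1-deficient arrays. Wild type replicate 1 lay more than 1 log2 unit below the other wild type arrays and just above the highest VRK1-deficient array. The change was -1.42 in log2 (limma adjusted p = 0.0454, standard error 0.28), so that 37.4% of the wild type signal was left. Without wild type replicate 1 it was -1.73 (limma adjusted p = 0.00322). Slide 1 alone gave -1.23 and slide 2 alone -1.61. The adjusted p of limma was 0.0712 to 0.147 when 1 of the remaining 7 arrays was dropped. The germ cell marker sum was also lowest in wild type on replicate 1, at 24.0, and its part in the values of Cdkn2a was not tested.

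Cdkn2b encodes p15, the inhibitor next to Cdkn2a on chromosome 4. Its probe (A_52_P498241) carries no position in the files. Its log2 signal was -1.15, -0.68, -0.41 and -0.33 on wild type arrays and -1.54, -1.17, -1.64 and -1.36 on VRK1-deficient arrays. The groups did not overlap, but wild type replicate 1 lay only just above the highest VRK1-deficient array. The change was -0.78 in log2 (58.1% of the wild type signal, limma adjusted p = 0.0559, standard error 0.19), and -0.95 (limma adjusted p = 0.00482) without wild type replicate 1. Slide 1 alone gave -0.44 and slide 2 alone -1.13.

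Cdkn2c encodes p18, an INK4 inhibitor whose loss in mice is known to enlarge organs. Its log2 signal on A_51_P513719 (chromosome 4 from 109037613 to 109037672) was 1.35, 1.17, 1.21 and 0.86 on wild type arrays and 1.91, 1.73, 1.67 and 1.68 on VRK1-deficient arrays. All VRK1-deficient arrays lay above all wild type arrays, with replicate 1 closest to them. The change was 0.60 in log2 (1.52-fold, limma adjusted p = 0.0476, standard error 0.13), and 0.67 (limma adjusted p = 0.00844) without wild type replicate 1. Slide 1 alone gave 0.57 and slide 2 alone 0.64. The call was lost without scaling, at 0.42 (limma adjusted p = 0.296), and with the normexp background, at 0.53 (limma adjusted p = 0.0706). The adjusted p of limma was 0.0696 to 0.149 when 1 of the remaining 7 arrays was dropped. The overlapping probe A_51_P513720 gave 0.57 (limma adjusted p = 0.0616). The summed signals of the Sertoli cell, mast cell, endothelial cell, Leydig cell and macrophage markers given above were also higher in VRK1-deficient testes. In each sum the brightest markers weigh most, and 2 Sertoli cell and 2 Leydig cell markers were lower. Groups overlapped for the Sertoli cell, Leydig cell and macrophage lists. The part of these cell types in the values of Cdk1, Cdk4, Cdkn1c and Cdkn2c was not tested.

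Cdkn2d encodes p19 INK4d, an inhibitor expressed in meiotic germ cells. The log2 signals of its probe (A_51_P122356, chromosome 9 from 21165094 to 21165153) were 2.42, 2.28, 2.60 and 2.70 on wild type arrays and 2.40, 2.49, 2.47 and 2.36 on VRK1-deficient arrays. The groups overlapped, and the change was -0.07 in log2 (95% confidence interval -0.34 to 0.20, limma adjusted p = 0.728), and -0.10 without wild type replicate 1. The 4 INK4 genes gave values in both directions. Cdkn2a and Cdkn2b were at 37.4% and 58.1% of the wild type signal, Cdkn2c at 152% and Cdkn2d at 95.3%.

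**Figure D3:**
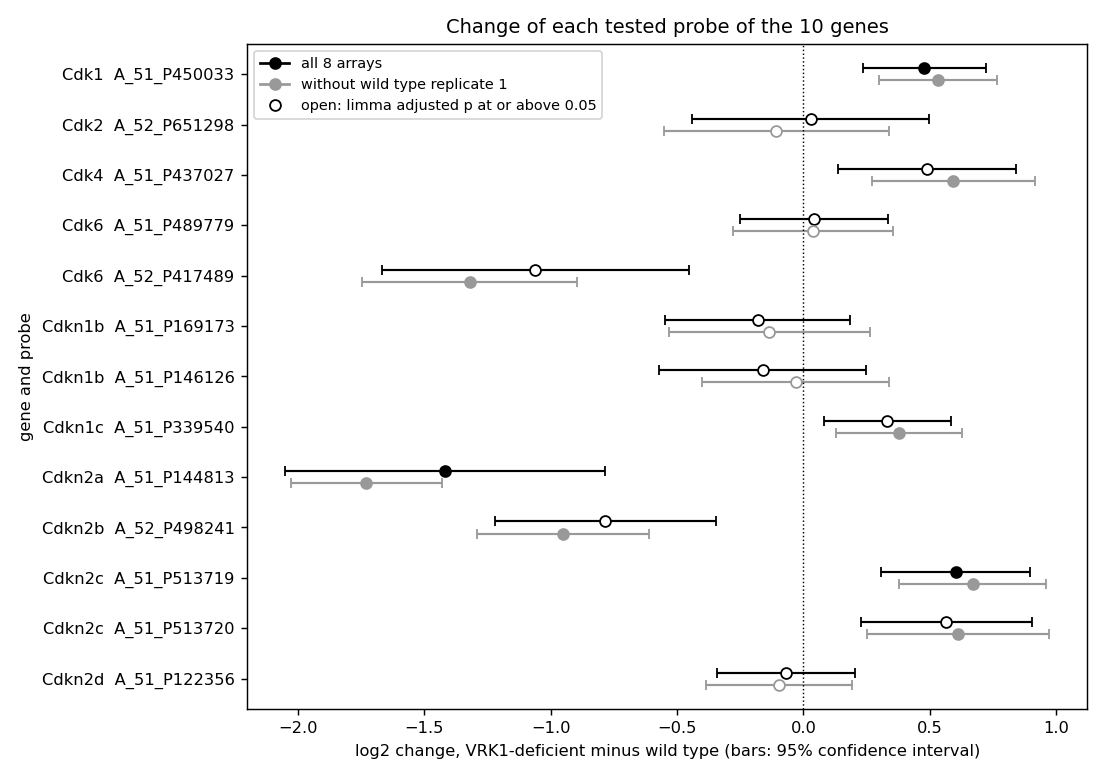
Log2 change from wild type to VRK1-deficient testes (horizontal axis) with its 95% confidence interval for the 13 tested probes (vertical axis), from all 8 arrays (black) and without wild type replicate 1 (grey). Filled points have a limma adjusted p under 0.05. Cdk1, Cdkn2a and Cdkn2c are filled in black, and Cdk4, Cdkn1c, Cdkn2b and the Cdk6 probe A_52_P417489 only in grey, together with the second Cdkn2c probe.

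The other genes of the pathway were taken as lists of 51 genes, of which 50 were tested and 3 were called, beside 3.64% of all tested probes. Of the 50, 20 were higher and 30 lower, with a median change of -0.05 against 0.04 over all tested probes. Without wild type replicate 1, 15 were called, 5 higher and 10 lower, beside 28.4% of all probes. When 1 of the remaining arrays was dropped, 0 were called by limma, and 10 to 16 of the 50 had an unadjusted p under 0.05 beside 5308 to 7410 of the 26948 probes. Cyclins bind and activate the CDKs, and of 10 tested 4 were higher and 6 lower, with a median of -0.48. Ccna2, the cyclin A of dividing cells, rose by 0.61 (limma adjusted p = 0.0409, standard error 0.11), and by 0.67 without wild type replicate 1. Without scaling it was 0.43 (limma adjusted p = 0.265). Its log2 signals were 2.50, 2.32, 2.23 and 2.24 on wild type arrays and 2.97, 2.92, 2.97 and 2.86 on VRK1-deficient arrays, so the groups did not overlap. Ccnb3, a cyclin of meiotic germ cells, fell by 2.05 on the log2 scale (limma adjusted p = 0.0466, standard error 0.41), from -3.90, -2.24, -2.69 and -1.87 to -5.31, -4.21, -4.50 and -4.87. Its lowest wild type array was replicate 1, without which the change was -2.45, and it was above background on 4 wild type and 3 VRK1-deficient arrays. With the normexp background the change was -0.73 and the call was lost (limma adjusted p = 0.0618). Ccne2, a partner of Cdk2, had a change of -1.08 (limma adjusted p = 0.140) and overlapping groups. Its other tested probe gave -1.32 (limma adjusted p = 0.105), also with overlap.

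Among the kinases and phosphatases that switch CDKs on or off (8 tested, 0 called by limma and 2 at an unadjusted p under 0.05, median change -0.16), the largest values were those of Cdc25b, a phosphatase that activates Cdk1, at 0.39 (limma adjusted p = 0.0630), and of Mnat1, a subunit of the CDK-activating kinase, at 0.38 (limma adjusted p = 0.0614). On these probes, the brightest of each gene, the groups did not overlap. The other tested Cdc25b probes gave 0.44 (limma adjusted p = 0.0961) without overlap and 0.79 (limma adjusted p = 0.326) with overlap. The RB family, targets of Cdk4 and Cdk6, and the E2F transcription factors, some of which it holds back, had 12 tested members, 1 call and a median of -0.10. The called gene was E2f2, which fell by 0.70 on the log2 scale (limma adjusted p = 0.0499, standard error 0.16), to 61.6% of the wild type signal. The log2 signal was 0.91, 1.47, 1.13 and 1.46 on wild type arrays and 0.28, 0.68, 0.61 and 0.61 on VRK1-deficient arrays, without overlap. Without wild type replicate 1 the change was -0.81, and with slide as a block the limma adjusted p was 0.0546. E2f5 had a change of -0.53 (limma adjusted p = 0.112), and its other tested probe gave -0.56 (limma adjusted p = 0.112). E2f4 was not bright enough to be tested.

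None of the 6 genes for CKS subunits and the ligase components that mark inhibitors and cyclins for degradation was called (1 at an unadjusted limma p under 0.05), and their median change was -0.02. The largest values were those of Fbxw7 at -0.31 (limma adjusted p = 0.150) and Cks1b at 0.19 (limma adjusted p = 0.333). The remaining CDK inhibitors were Cdkn1a, the p53 target p21, with a change of 0.26 (limma adjusted p = 0.233), and Cdkn3, a CDK phosphatase, with 0.12 (limma adjusted p = 0.663). Of 12 CDKs outside the core cycle 0 were called by limma (2 at an unadjusted p under 0.05), and the largest values were those of Cdk14 at 0.60 (limma adjusted p = 0.0735) and Cdk13 at -0.53 (limma adjusted p = 0.0616). The other 2 tested Cdk13 probes gave -0.02 and 0.01, and the other tested Cdk14 probe gave 0.61 (limma adjusted p = 0.165). Of 12 proliferation markers, which include Mki67, Top2a, Pcna and 4 Mcm genes, 3 were higher and 9 lower, 0 were called by limma (1 at an unadjusted p under 0.05), and the median was -0.11. Their summed signal was 164 to 217 on wild type and 155 to 189 on VRK1-deficient arrays.

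**Figure D4:**
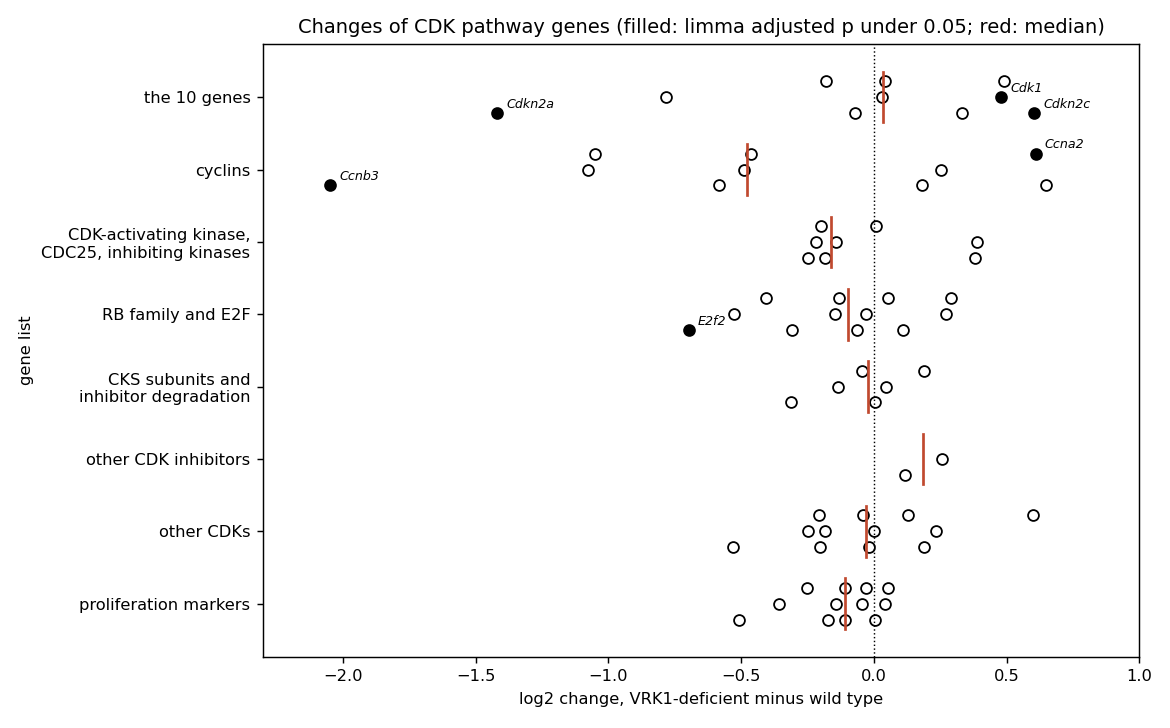
Log2 change from wild type to VRK1-deficient testes (horizontal axis) of the 10 genes, of the 50 tested genes of 6 other pathway lists and of 12 proliferation markers, each circle a gene. Filled circles are called and named, and red lines are list medians. The 10 genes hold 3 calls, the cyclins 2, the RB family and E2F genes 1, and the other lists 0.

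The 3 genes with the widest spread over the 8 arrays were Cdkn2a, Cdkn2b and Cdkn2c. For each, the genes whose array-wise values were most alike were found by the root mean square difference of centred log2 signals over 8 arrays, among 26941 probes. For Cdkn2a they were 1700028E10Rik (0.147), Zfp318 (0.149) and Smpd3 (0.156). For Cdkn2b they were Pik3r3 (0.0826), Zkscan2 (0.0962) and Igfbp2 (0.0979). For Cdkn2c they were Mob3b (0.0624), Brcc3 (0.0658) and Tmem223 (0.0678). These genes share the difference between genotypes with the member by the way they were found.

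**Figure D5:**
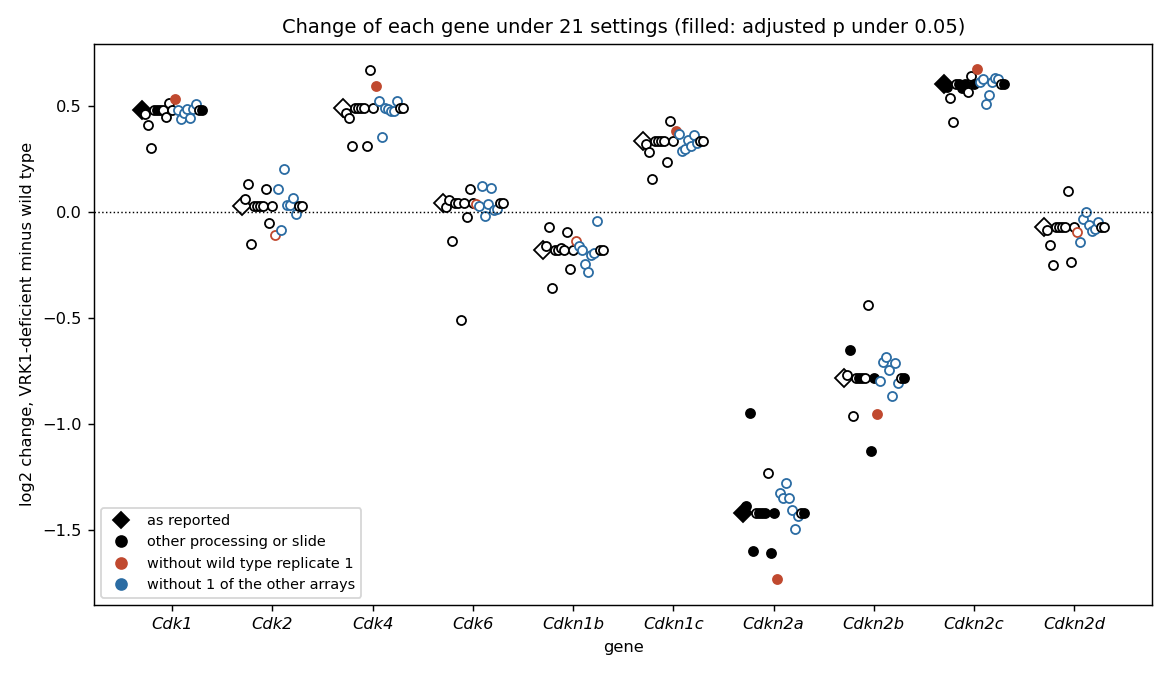
Log2 change from wild type to VRK1-deficient testes (vertical axis) of each of the 10 genes (horizontal axis) as reported (diamonds) and under 20 alternatives (circles), with the alternatives that leave out 1 array in red for wild type replicate 1 and in blue for the others. Filled symbols have an adjusted p under 0.05. Cdkn2a stays between -1.73 and -0.95 and Cdkn2c between 0.42 and 0.67, whereas the values of Cdk2 and Cdk6 lie on both sides of 0.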

How the data were processed

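Cy3-labeled RNA from testes of postnatal day 8 was measured on 1-color Agilent Whole Genome Mouse arrays, 4 for each genotype. The authors used Agilent Feature Extraction 9.5.3.1, which subtracts background within an array, and deposited its processed signals as linear intensities without scaling between arrays. The deposited value table was identical to these signals (0 unequal values). Later steps were made in GeneSpring GX according to the methods, with a normalization not given in the sources used here.

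An array carried 43379 spots that were not controls, out of 45018, for 41174 probes. Outlier spots (58 to 134 per array, 0 for the 10 genes) were left out, and 0 spots were saturated. Between 63.6% and 69.5% of spots were well above background. The log2 of the 75th percentile (548 to 848) was subtracted from the log2 signals of its array, with no pseudocount, and repeated spots of a probe were averaged. A probe entered the test if it was well above background on 4 or more of the 8 arrays, as 26948 were. Genotypes were compared with lmFit and eBayes of limma 3.58.1 in R 4.3.3 with Benjamini-Hochberg adjustment over these probes, and probes were called at an adjusted p under 0.05. A gene was represented by its probe with the highest mean signal. The number of arrays limits the precision. Other tools were Python 3.11.15 with scipy 1.17.1 for exact permutation tests, pandas 2.3.3, numpy 2.4.6 and matplotlib 3.10.9, and the R package data.table (1.17.8).

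The genes named are the 10 genes with every probe, Vrk1, and the called genes and the 2 largest changes of each pathway list. Also named are the 3 nearest patterns of the 3 members with the largest SD on their brightest probes. Markers are given by counts and sums. The members and lists were chosen with earlier results of these data known. Alternatives changed the normalization (quantile, or the unscaled value table), the background (normexp, offset 50), the filter (none, or well above background on 8 of 8 arrays), the probe summary (mean over the tested probes of a gene), the model (slide or replicate number as a block, trend with robust variances, or the Student's t-test that the methods name) and the arrays (either slide alone, or 1 array dropped). Probe positions are those of the files (build mm7), and promoters those of RefSeq on GRCm38.p6. Probe names were updated through RefSeq by accession for 22951 probes, by symbol for 6659 and by synonym for 3109. The study's other assays and its supplementary tables were not used here.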

Additional observations from a re-analysis of the deposited data

Results flagged for a closer look

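Among 54 groups of 4 arrays that were examined for a single array far from the others, 5 had one with a gap to the next that exceeded Dixon's critical value as a share of the whole range, and chance gives about 1 in 20. Wild type replicate 1 was far below its group for Cdkn2a, with a log2 signal of -2.32 against -1.17 to -0.96 on replicates 2 to 4, and for the Cdk6 probe A_52_P417489, with -1.34 against -0.38 to -0.25. Cdkn1a was low on VRK1-deficient replicate 1, at -1.94 against -1.63 to -1.58. Cks1b was high on wild type replicate 3, at 3.74 against 3.34 to 3.38. Mnat1 was low on VRK1-deficient replicate 4, at 0.765 against 0.915 to 0.939.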

How the results depend on the processing

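The direction of Cdk1, Cdk4, Cdkn1b, Cdkn1c, Cdkn2a, Cdkn2b and Cdkn2c was kept under all 20 alternatives. Cdkn2a was called under 10 of them, Cdkn2b and Cdkn2c under 7 each, Cdk1 under 4, and Cdk4 and Cdkn1c under 1 each, the one without wild type replicate 1. The 3 calls among the 10 genes became 1 without scaling between arrays (Cdkn2a), 0 with no filter on dim probes, 0 within slide 1 and 0 with the methods' t-test after Benjamini-Hochberg adjustment, which had 6 genes at an unadjusted p under 0.05 beside 26.2% of all probes. With limma, an unadjusted p under 0.05 was found for 6 genes with no filter and 3 within slide 1, against 6 of 10 and 28.8% of all probes in the main setting. With 1 array left out, the count ranged from 0 to 6. For the 50 pathway genes the 3 calls became 1 without scaling, 0 with no filter (13 at an unadjusted limma p under 0.05), 0 within slide 1 (2 unadjusted), 6 with the replicate number as a block and 7 with a trend and robust variances, and they ranged from 0 to 15 with 1 array left out.

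Small changes turned sign. Without scaling, Cdk2 was at -0.15, Cdk6 at -0.14 and Cdkn3 at -0.0626. Cdk2 was at -0.0504 and Cdkn3 at -0.0808 within slide 2, and Cdk6 was at -0.0223 and Cdkn2d at 0.0978 within slide 1. The mean of the tested Cdk6 probes gave -0.51, since it takes in the probe A_52_P417489. With 1 array left out, Cdk2 ranged from -0.11 to 0.20 and Cdk6 from -0.0192 to 0.12. Scaling subtracts 1 value per array, so leaving it out moved the changes of these genes by the same amount. The median over all tested probes was then -0.14 against 0.04. Apart from this and the mean over Cdk6 probes, the cause of the shifts was not tested.

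Over all tested probes, 982 were called (452 higher, 530 lower). The count was 916 without scaling (64 higher, 852 lower), 17 with no filter, 3 within slide 1, 626 with slide as a block, 1059 within slide 2 (312 higher, 747 lower), 1920 with a trend and robust variances, 7641 without wild type replicate 1, 3 to 68 when another array was dropped, and 217 with the t-test. Same-numbered arrays deviated together for replicates 1 to 3 (correlations of 0.53, 0.12 and 0.21) but not for 4 (-0.19), so the numbers were not taken to pair the samples. With the replicate number as a block, 2280 probes and 3 of the 10 genes (Cdkn2a, Cdkn2b, Cdkn2c) were called by limma, with adjusted p = 0.0451 for Cdkn2b and 0.0559 for Cdk1. In deviations from the group means, wild type replicates 1 to 3 correlated best with the VRK1-deficient array of their own number. Replicate 4 correlated best with that of number 2. Same-numbered arrays also shared a slide.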
